A study of Mus musculus with 32 samples.

Results

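The core circadian clock loop was described in brown adipose tissue through 10 genes, namely the activators Arntl, Clock and Npas2 and the repressors Per1, Per2, Per3, Cry1, Cry2, Nr1d1 and Nr1d2. The 10 genes are textbook parts of the loop, and the set was picked from the measured differences of these arrays in the KO contrasts and between the WT groups. Its differences in these contrasts are therefore descriptions, with p-values from the fit over all probes, and counts over the set stand beside the share of all genes. Its members were all probes whose gene name on the array was 1 of these 10 symbols and whose probe identifier was also in the deposited value table. This gave 24 probes of the 37306 that passed the brightness filter, with 24 of 24 clock probes passing, and 10 of the 24523 gene names. Each gene stands here by its brightest probe, the probe with the highest mean over all 32 arrays, and the other probes are named where they differ.

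The 32 arrays, 1 color and hybridized with RNA of interscapular brown fat, came from male C57BL6/J mice and formed 4 groups of 8. ChREBPtotal_KO mice carried null alleles of Mlxipl and lacked the α and β isoforms of the glucose-responsive transcription factor ChREBP, and ChREBPtotal_WT were their wild-type (WT) littermates. ChREBPbeta_KO mice lacked only the exon that is specific to the β isoform, removed by CRISPR/Cas9 in the embryo, and ChREBPbeta_WT were the WT littermates of that line. Both deletions were present in all tissues and not in fat alone. All 4 groups were fasted for 24 hours and then refed for 18 hours with food and 20% glucose in the drinking water. Ages and the clock time at which each mouse was killed were not given in the sources used here. The study's methods state equal hours of light and dark, and a morning hour for blood taken outside tolerance tests. They give no hour for taking the tissue.

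The mammalian clock is a transcriptional feedback loop. ARNTL (also called BMAL1) pairs with CLOCK or its paralog NPAS2 and binds E-box sequences to switch on the Per, Cry and Nr1d genes. PER and CRY proteins accumulate and block that pair, and the nuclear receptors NR1D1 and NR1D2 (REV-ERBα and REV-ERBβ) repress Arntl, Clock, Npas2 and Cry1 through ROR elements. Transcripts of Arntl and of the Per and Nr1d genes therefore peak at different times of day, and brown fat, like liver, runs such a clock. Feeding time is known to shift clocks of peripheral tissues.

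Parts of 5 promoters are shown because they carry the letters through which this loop is known to work. RefSeq sequences of build GRCm38.p6 covering 250 bases before and 50 bases after a transcription start were at hand for 9 of the 10 genes, at 13 starts, and not for Per2. They were searched on either strand for the E-box CACGTG, its variant CACGTT, the ROR elements TAGGTCA and TGGGTCA, the D-box TTANGTAA (bound by DBP, TEF and HLF, and by the repressor NFIL3) and the cAMP response element TGACGTCA. No matches overlapped each other, and CACGTG and TGACGTCA read the same on both strands. Capitals mark the matches in the lines that follow, each 5′ to 3′ on the strand of its gene. The first 4 show the 250 bases before the start, namely chr11:69098699-69098948 (plus strand), chr4:151044666-151044915 (minus), chr10:85185055-85185304 (minus) and chr11:98775378-98775627 (minus), and the line for Arntl shows 30 bases after a start, at chr7:113207530-113207559 (plus).
Per1: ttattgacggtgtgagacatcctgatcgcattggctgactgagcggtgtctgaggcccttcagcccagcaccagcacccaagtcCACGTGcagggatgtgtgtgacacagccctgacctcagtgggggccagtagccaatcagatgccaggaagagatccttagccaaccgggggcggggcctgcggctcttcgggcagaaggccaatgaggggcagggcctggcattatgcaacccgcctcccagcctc
Per3: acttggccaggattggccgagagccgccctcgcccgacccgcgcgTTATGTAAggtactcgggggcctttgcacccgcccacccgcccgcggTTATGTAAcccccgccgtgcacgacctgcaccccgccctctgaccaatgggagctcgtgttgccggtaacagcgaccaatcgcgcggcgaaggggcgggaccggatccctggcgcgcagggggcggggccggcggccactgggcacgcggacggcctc
Cry1: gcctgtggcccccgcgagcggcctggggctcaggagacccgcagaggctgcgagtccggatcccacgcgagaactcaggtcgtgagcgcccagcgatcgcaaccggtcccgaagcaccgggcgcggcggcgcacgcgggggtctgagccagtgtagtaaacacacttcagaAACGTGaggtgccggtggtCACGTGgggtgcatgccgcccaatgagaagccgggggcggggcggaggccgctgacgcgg
Nr1d1: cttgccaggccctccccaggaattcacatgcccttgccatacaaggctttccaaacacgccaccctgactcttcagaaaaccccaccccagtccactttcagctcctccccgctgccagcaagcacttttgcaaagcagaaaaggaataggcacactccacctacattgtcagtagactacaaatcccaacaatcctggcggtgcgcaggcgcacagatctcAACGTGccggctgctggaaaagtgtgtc
Arntl: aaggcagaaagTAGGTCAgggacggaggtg

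The E-box CACGTG was found in the windows of Per1, at -166 from the start, and of Cry1, at -60, which is 2 of 9 genes, beside 7.15% of all 32851 promoters of this length. CACGTT, or AACGTG when read from the other strand, was found for Cry1 at -79, Nr1d1 at -28 and Cry2 at -166, beside 4.68% of all promoters. Per3 held 2 D-boxes, at -205 and -158, beside 2.32% of all promoters. TAGGTCA was found only for Arntl, 31 bases after a start, beside 2.61% of all promoters. TGGGTCA and TGACGTCA were found in none of the windows of the 9 genes, beside 3.98% and 1.79% of all promoters. Genes were counted by a match at any of their starts (13 starts for the 9 genes), whereas the shares are per promoter, so the units differ. A match of letters describes the sequence only, and sites outside these windows were not searched.

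The brightest probes of 9 genes were well above background on 32 of 32 arrays, and that of Npas2 on 22 of 32. No spot of a member was saturated or marked as an outlier. Between 64.4% and 71.1% of the spots of an array were well above background, and arrays of a group correlated at 0.984 to 0.997. The probe for Mlxipl fell by 2.48 (log2) in total ChREBP KO mice and by 1.50 in ChREBPβ KO mice, with no overlap between KO and WT arrays. The means of 10 brown adipocyte markers lay between 15.03 and 15.70 on every array, although 5 were higher and 2 lower in ChREBPtotal_KO than in WT, with Dio2 (2.19) and Elovl3 (-3.16) the farthest, and 4 were higher and 2 lower in ChREBPbeta_WT than in ChREBPtotal_WT. Means of 10 skeletal muscle markers were 12.86 to 16.22 in the total line and 5.48 to 11.998 in the β line, and 10 of 10 muscle markers were lower in ChREBPbeta_WT than in ChREBPtotal_WT. Means of 9 liver markers ranged from 6.31 to 13.25 over the arrays, and 4 of 4 macrophage markers were lower in ChREBPtotal_KO and in ChREBPbeta_WT than in ChREBPtotal_WT. Means ran from 6.30 to 7.49 for lymphocyte, 7.81 to 9.24 for white adipose, 10.88 to 12.70 for blood and 10.22 to 10.97 for endothelial markers over all arrays, and 3 of 7 lymphocyte and 3 of 4 endothelial markers were higher in ChREBPbeta_WT than in ChREBPtotal_WT. Of the white adipose markers 1 of 5 was higher and 2 were lower there, 2 of 4 blood markers were lower and 1 of 9 liver markers was higher. Over all genes, 44.1% were called in total ChREBP KO and 38.9% between the WT groups. In bulk tissue, fewer cells of a type and less RNA per cell cannot be told apart. The part of these other cell types in the clock differences was not tested. A fit with the muscle and liver means is given with the WT groups, but it does not cleanly separate line from muscle content. Arrays were washed in 4 batches, scanned on 2 days (batches 1 and 2 on day 1, batches 3 and 4 on day 2), and each group had 4 arrays on each day.

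In mice without either ChREBP isoform, 5 repressors of the loop were higher and Cry1 and Clock were lower than in WT littermates. Of the 10 genes, 7 passed an adjusted p of 0.05 (limma, Benjamini-Hochberg over all 37306 probes), 5 higher and 2 lower in ChREBPtotal_KO than in ChREBPtotal_WT. In the same contrast 44.1% of all 24523 gene names were called, 22.9% higher and 21.1% lower. Of the 24 probes 15 were called, beside 43.2% of all probes. The repressors accounted for 6 of the 7 called genes, out of 7 measured, and the activators for 1, out of 3. The median log2 difference was 0.68 over the repressors and -0.12 over the activators, against 0.01 over all genes. KO and WT ranges did not overlap for 4 of the 10 genes, as for 16.6% of all genes.

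Per2 and Per3, which encode period proteins that inhibit ARNTL-CLOCK, moved most. The Per2 probe (chr1:93312595-93312654 of build mm9, minus strand) had log2 intensities of 9.01, 9.56 and 10.30 (lowest, median, highest of 8) in ChREBPtotal_WT and 10.97, 11.15 and 11.34 in ChREBPtotal_KO. Every KO array was above every WT array, and the difference was 1.54 ± 0.20 (log2, SE), a 2.91-fold higher level (limma adjusted p = 1.36e-07). The other Per2 probe moved the same way by 0.31 ± 0.06 (limma adjusted p = 0.000194). Per3 (chr4:150385608-150385667, mm9, minus strand) lay at 7.54, 7.85 and 8.22 in WT and at 8.83, 9.34 and 9.80 in KO arrays. These ranges were also separate, and the difference was 1.50 ± 0.32, or 2.82-fold (limma adjusted p = 0.000271). The other Per3 probes rose by 1.16 and 0.83, and were called as well. Per1, the period gene known for a rapid response to cAMP and glucocorticoids (chr11:68923364-68923423, mm9, plus strand), lay at 12.05, 12.42 and 13.00 in WT and 12.38, 12.68 and 13.10 in KO arrays, which overlap, and its difference of 0.24 ± 0.22 did not pass the test (limma adjusted p = 0.415).

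The cryptochromes, partners of the PER proteins in repression, went opposite ways. Cry1 (chr10:84594731-84594790, mm9, minus strand) lay at 6.11, 6.28 and 6.86 in WT and at 5.52, 5.87 and 6.02 in KO arrays. The ranges did not overlap and the level fell by 0.51 ± 0.11 (limma adjusted p = 0.000281), although the other Cry1 probe differed by only -0.14 ± 0.11 (adjusted p = 0.338). Cry2 (chr2:92243807-92243866, mm9, minus strand) rose by 0.45 ± 0.12 (limma adjusted p = 0.00262), from 11.46, 11.61 and 11.85 in WT to 11.69, 12.13 and 12.37 in KO arrays, and 6 of 8 KO arrays exceeded the highest WT array. The other Cry2 probes rose by 0.61 and 0.49, both called.

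The REV-ERB genes rose together. Nr1d2 (chr14:19036568-19036627, mm9, minus strand) was at 9.82, 9.95 and 10.23 in WT and at 10.47, 10.72 and 11.05 in KO arrays, with no overlap, a difference of 0.73 ± 0.16 or 1.66-fold (limma adjusted p = 0.000446). Its other probes rose by 0.79 and 0.72, and were called. Nr1d1, whose single probe is placed within chr11:98630526-98631028 (mm9, minus strand), was at 9.31, 9.96 and 10.13 in WT and at 9.94, 10.47 and 11.27 in KO arrays. Of the KO arrays 6 of 8 were above the highest WT array, and the difference was 0.68 ± 0.19 (limma adjusted p = 0.00337).

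Among the activators Clock alone passed the test. Arntl (chr7:120456978-120457037, mm9, plus strand) was at 8.34, 8.73 and 9.03 in WT and at 8.17, 8.47 and 9.20 in KO arrays, which overlapped widely, with a difference of -0.12 ± 0.34 (limma adjusted p = 0.814). Its other probes gave 0.15 and 0.08, not called. Clock (chr5:76639992-76640051, mm9, minus strand) fell by 0.30 ± 0.10 (limma adjusted p = 0.0189), from 9.88, 10.05 and 10.29 in WT to 9.58, 9.75 and 10.01 in KO arrays, with 7 of 8 KO arrays below the lowest WT array. Of the other 3 Clock probes, 1 fell by 0.22 and was called and 2 gave 0.10 and 0.04, not called. Npas2 (chr1:39418941-39419000, mm9, plus strand), near background, was at 4.70, 4.93 and 5.26 in WT and 4.72, 4.96 and 5.07 in KO arrays (difference -0.03 ± 0.08, limma adjusted p = 0.772).

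Within each wash batch, the direction of the total ChREBP KO difference was kept by Per2, Per3, Cry2, Nr1d1 and Nr1d2 (higher in 4 of 4 batches) and by Cry1 and Clock (lower in 4 of 4). Differences within batches ran from 1.18 to 1.69 for Per2, from 0.90 to 1.83 for Per3 and from -0.41 to -0.046 for Clock. Each batch held only 1 to 3 ChREBPtotal_KO arrays and 2 ChREBPtotal_WT arrays. With the 15 slides as a block, 4 genes were called (Per2, Per3, Cry1 and Nr1d1), and Nr1d2 (0.54, adjusted p = 0.0721), Cry2 (0.33, adjusted p = 0.0843) and Clock (-0.27, adjusted p = 0.178) were not, against 0.73, 0.45 and -0.30 without the block. The share of all genes called with this block is not given here, so whether the clock genes lost more calls than other genes cannot be told.

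**Figure D1:**
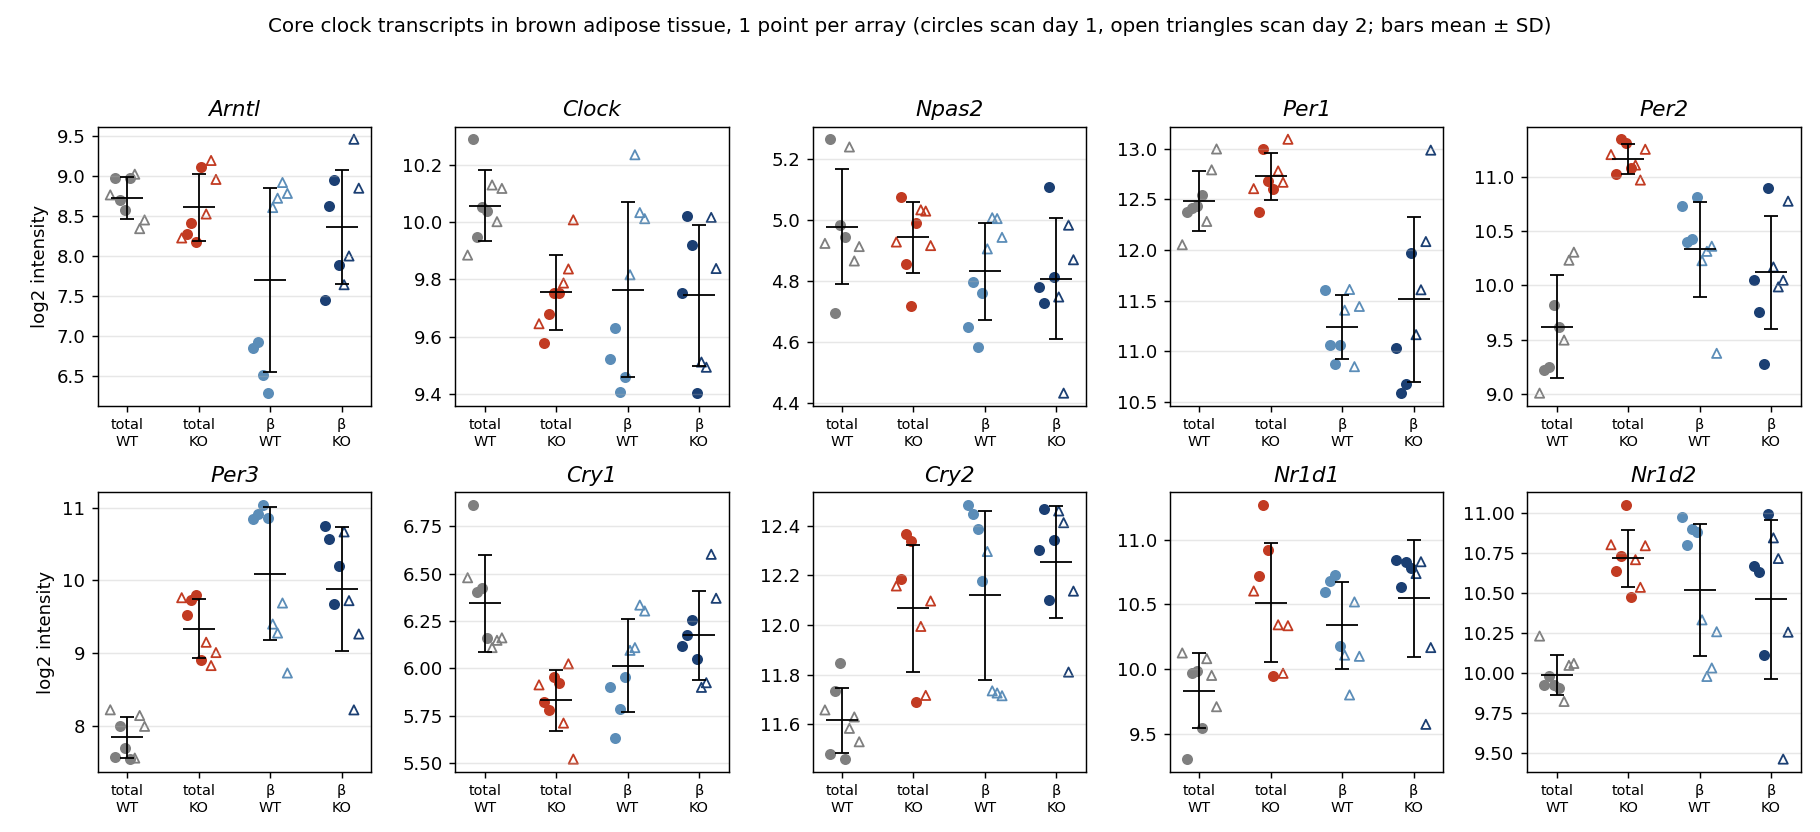
Log2 intensity (y axis) of the brightest probe of each clock gene on the 32 arrays, by group (x axis), with filled circles for scan day 1, open triangles for scan day 2, and bars for the mean ± SD of 8 arrays. Every ChREBPtotal_KO array lies above every ChREBPtotal_WT array for Per2, Per3 and Nr1d2, and the ChREBPbeta_WT arrays fall into 2 sets of 4 for Arntl and Per3.

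None of the 10 clock genes differed between ChREBPbeta_KO and ChREBPbeta_WT by the test. In that contrast 2.7% of all genes were called, so that a count of 0 of 10 lies near the share over all genes. By an unadjusted p under 0.05, limma also marked 0 of 10 genes (14.1% of all genes) and 1 of the 24 probes, a Clock probe at 0.19 ± 0.09 (adjusted p = 0.325), and 0 of 24 probes were called (2.55% of all probes). KO and WT ranges overlapped for all 10 genes (0.432% of all genes did not overlap).

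Arntl had the widest difference of the 10 genes, 0.66 ± 0.34 (limma adjusted p = 0.403), with 6.29, 7.77 and 8.92 in ChREBPbeta_WT and 7.45, 8.31 and 9.46 in ChREBPbeta_KO. The low end of the WT arrays was not reached by any KO array, and the upper ends overlapped. Clock lay at 9.41, 9.72 and 10.24 in WT and at 9.40, 9.79 and 10.02 in KO arrays. Per1 reached from 10.59 to 12.99 in KO arrays against 10.85 to 11.61 in WT arrays, the widest range of Per1 in any group, and its difference was 0.27 ± 0.22 (limma adjusted p = 0.685). Per2 (10.12 ± 0.52 against 10.33 ± 0.44, mean ± SD, n = 8 each) and Per3 (9.88 ± 0.86 against 10.10 ± 0.92) differed by -0.21 each. Nr1d1 differed by 0.21, Cry1 by 0.16, Cry2 by 0.13, Nr1d2 by -0.06 and Npas2 by -0.02, with adjusted p-values of 0.596 to 0.959.

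The difference between the KO effects was tested itself as an interaction. It passed for 4 of 10 genes, beside 25.2% of all genes. Per2 (-1.75 ± 0.28, limma adjusted p = 1.77e-05), Per3 (-1.71 ± 0.45, adjusted p = 0.00531) and Nr1d2 (-0.79 ± 0.23, adjusted p = 0.0113) had lower KO effects in the β line than in the total line, and Cry1 (0.67 ± 0.16, adjusted p = 0.00154) a higher one. Over the 24 probes 11 were called, beside 24.1% of all probes. For Nr1d1 (-0.47 ± 0.26, adjusted p = 0.209), Cry2 (-0.32 ± 0.17, adjusted p = 0.184) and the other 4 genes the KO effects were not shown to differ.

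**Figure D2:**
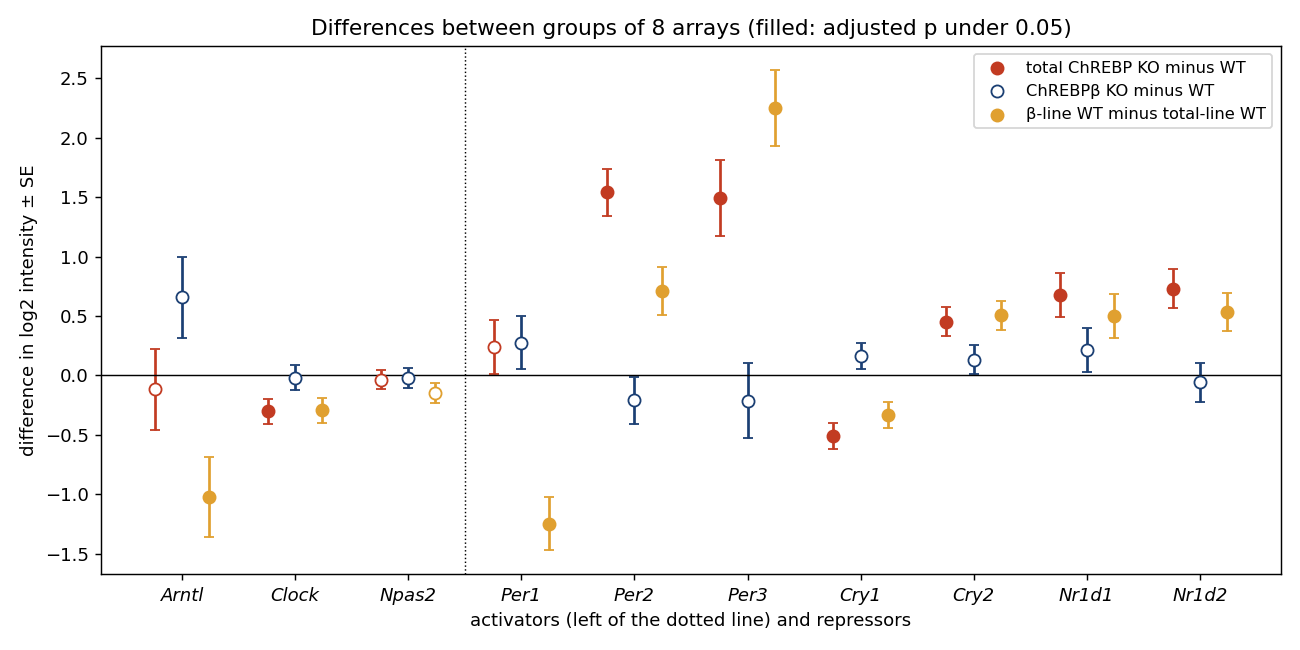
Difference in log2 intensity (y axis, ± SE) of the 10 genes (x axis) in total ChREBP KO against WT, ChREBPβ KO against WT, and between the WT groups, with filled points at an adjusted p under 0.05. Filled points are 7 of 10 for total ChREBP KO, 0 of 10 for ChREBPβ KO and 9 of 10 between the WT groups.

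The WT groups of the 2 lines differed from each other in most of the loop. Per3, Per2, Cry2, Nr1d2 and Nr1d1 were higher, and Per1, Arntl, Cry1 and Clock lower, in ChREBPbeta_WT than in ChREBPtotal_WT. This is 9 of 10 genes called, beside 38.9% of all genes (24.8% higher and 14.1% lower), and 16 of 24 probes, beside 39.2% of all probes. The ranges of 2 of the 10 genes did not overlap, as for 9.46% of all genes. This contrast shares the ChREBPtotal_WT arrays with the total KO contrast and the ChREBPbeta_WT arrays with the β KO contrast, so these are not independent of it.

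Per3 differed most. All 8 ChREBPbeta_WT arrays, at 8.73, 10.27 and 11.03, were above the highest ChREBPtotal_WT array (8.22), a difference of 2.25 ± 0.32 or 4.76-fold (limma adjusted p = 1.36e-06). In order of its mean, Per3 was lowest in ChREBPtotal_WT (7.84), then ChREBPtotal_KO (9.34), ChREBPbeta_KO (9.88) and ChREBPbeta_WT (10.10). The last 2 did not differ beyond their spread, and the ranges of ChREBPtotal_KO and ChREBPbeta_KO overlapped. Per1 went the other way, with 10.85, 11.24 and 11.61 in ChREBPbeta_WT, all below the lowest ChREBPtotal_WT array (12.05), a fall by 1.25 ± 0.22 (limma adjusted p = 4.68e-05), and its other probe fell by 0.78 with separate ranges.

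Arntl fell by 1.02 ± 0.34 (limma adjusted p = 0.0164), but the ChREBPbeta_WT arrays were split. Its other probes gave -0.64 (adjusted p = 0.107) and -0.56 (adjusted p = 0.131), not called. Per2 rose by 0.71 ± 0.20 (limma adjusted p = 0.00489), which its other probe did not follow (0.04). Nr1d2 rose by 0.53 ± 0.16, Cry2 by 0.50 ± 0.12 and Nr1d1 by 0.50 ± 0.19, Cry1 fell by 0.33 ± 0.11 and Clock fell by 0.29 ± 0.10 (limma adjusted p-values 0.00116 to 0.0303). The other Nr1d2 probes (0.37 and 0.41) and the other Cry1 probe (0.07) were not called. Npas2 differed by -0.15 ± 0.08 (adjusted p = 0.167). With the means of the muscle and liver lists as covariates, 3 genes were called, Per3 (2.08), Cry2 (0.72) and Clock (-0.48). The share of all genes called in this fit is not given here. Muscle list means did not overlap between the WT groups (12.86 to 16.22 in ChREBPtotal_WT, 5.48 to 11.998 in ChREBPbeta_WT). The fit therefore does not cleanly separate line from muscle content, and no conclusion is drawn from it. The other 6 genes were not called in this fit, with Arntl at -1.15 (adjusted p = 0.155), Per1 at -1.07 (0.0574), Per2 at 0.57 (0.276), Cry1 at -0.44 (0.101), Nr1d1 at 0.55 (0.231) and Nr1d2 at 0.64 (0.103). Left out 1 array at a time, the count was 6 to 9, with 6 without ChREBPtotal_WT replicate 2.

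The split of the ChREBPbeta_WT group followed the scan day. On scan day 1 Arntl was at 6.29, 6.52, 6.85 and 6.93 in its 4 arrays, replicates 1 to 4, and on day 2 at 8.61, 8.73, 8.79 and 8.92, replicates 5 to 8. No array lay between 6.93 and 8.61. The other groups did not split this way, with day means of 8.81 and 8.65 in ChREBPtotal_WT, 8.49 and 8.73 in ChREBPtotal_KO and 8.23 and 8.49 in ChREBPbeta_KO. Per3 of ChREBPbeta_WT was at 10.85 to 11.03 on day 1 and 8.73 to 9.69 on day 2, and Nr1d2 at 10.80 to 10.97 and 9.98 to 10.33, with Arntl low where these were high. Per1 did not divide by day in this group (10.87 to 11.60 and 10.85 to 11.61). The liver list mean of the same arrays was 6.44 to 12.33 on day 1 and 8.13 to 13.25 on day 2, and the muscle list mean 5.48 to 11.998 and 5.58 to 11.97. The 4 day 1 arrays lay on slides that also held arrays of other groups, with Arntl at 8.58 to 9.11 on those. Whether the mice, their collection or the hybridization set these 4 arrays apart cannot be told apart here, since the sources used give scan day, wash batch and slide alone.

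Each contrast was therefore repeated within each scan day, 4 arrays against 4, a choice made after the values had been seen. Between the WT groups 9 of 10 genes were called on day 1 (32.4% of all genes) and 2 of 10 on day 2 (19.1%), namely Per3 at 1.29 ± 0.38 (limma adjusted p = 0.0255) and Per1 at -1.20 ± 0.31 (limma adjusted p = 0.0132). Arntl differed by -2.16 ± 0.28 on day 1 (adjusted p = 4.31e-05) and by 0.11 ± 0.31 on day 2. The change between the days, 2.27 ± 0.44, restates the split already seen in these arrays, so that its p in the fit over all arrays (limma adjusted p = 0.0491, with 15 genes or 0.0612% of those tested called) is no independent support for it. Per3 changed by -1.92 ± 0.46 between the days (adjusted p = 0.0712) and Per1 by 0.09 ± 0.41 (adjusted p = 0.946).

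In ChREBPβ KO against WT, Arntl was higher by 1.59 ± 0.28 on day 1 (limma adjusted p = 0.0108), 1 of 10 genes beside 1.39% of all genes, and differed by -0.27 ± 0.31 on day 2 (adjusted p = 0.905), when 0 of 10 genes were called, beside 0.0652% of all genes. The difference between the days of -1.86 ± 0.44 did not pass (adjusted p = 0.41, unadjusted p = 0.000242), and no gene did in that test. The WT arrays of day 1 were the 4 low in Arntl whose split prompted these fits. The day 1 call of Arntl and its change between the days restate that split and are no independent support for a KO difference. In total ChREBP KO against WT, 7 of 10 genes were called on day 1 (33.4% of all genes) and 4 of 10 on day 2 (26.4%), namely Per2 at 1.37 ± 0.27, Per3 at 1.21 ± 0.38, Nr1d2 at 0.67 ± 0.22 and Cry1 at -0.43 ± 0.15. On day 2 Nr1d1 was at 0.34 (adjusted p = 0.307), Cry2 at 0.39 (0.0708) and Clock at -0.21 (0.224), where Nr1d1 had been at 1.01 on day 1. The 7 genes had the same direction on both days. The difference between the days passed for none of the 10 (adjusted p-values 0.856 to 0.997), with Nr1d1 at -0.67 ± 0.34 (unadjusted p = 0.059). It passed for 0 of all 24523 genes as well, so this count says nothing particular about the clock genes. For the difference between the KO effects, 6 of 10 genes were called on day 1 (15.1% of all genes), with Arntl (1.90) and Clock (0.66) beside Per2, Per3, Cry1 and Nr1d2, and 0 of 10 on day 2 (9.97%), where Per2 was at -1.20 ± 0.39 (adjusted p = 0.0661). The day 1 fit of this difference holds the same 4 ChREBPbeta_WT arrays, so its count, with the added calls of Arntl and Clock, is no independent result.

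**Figure D3:**
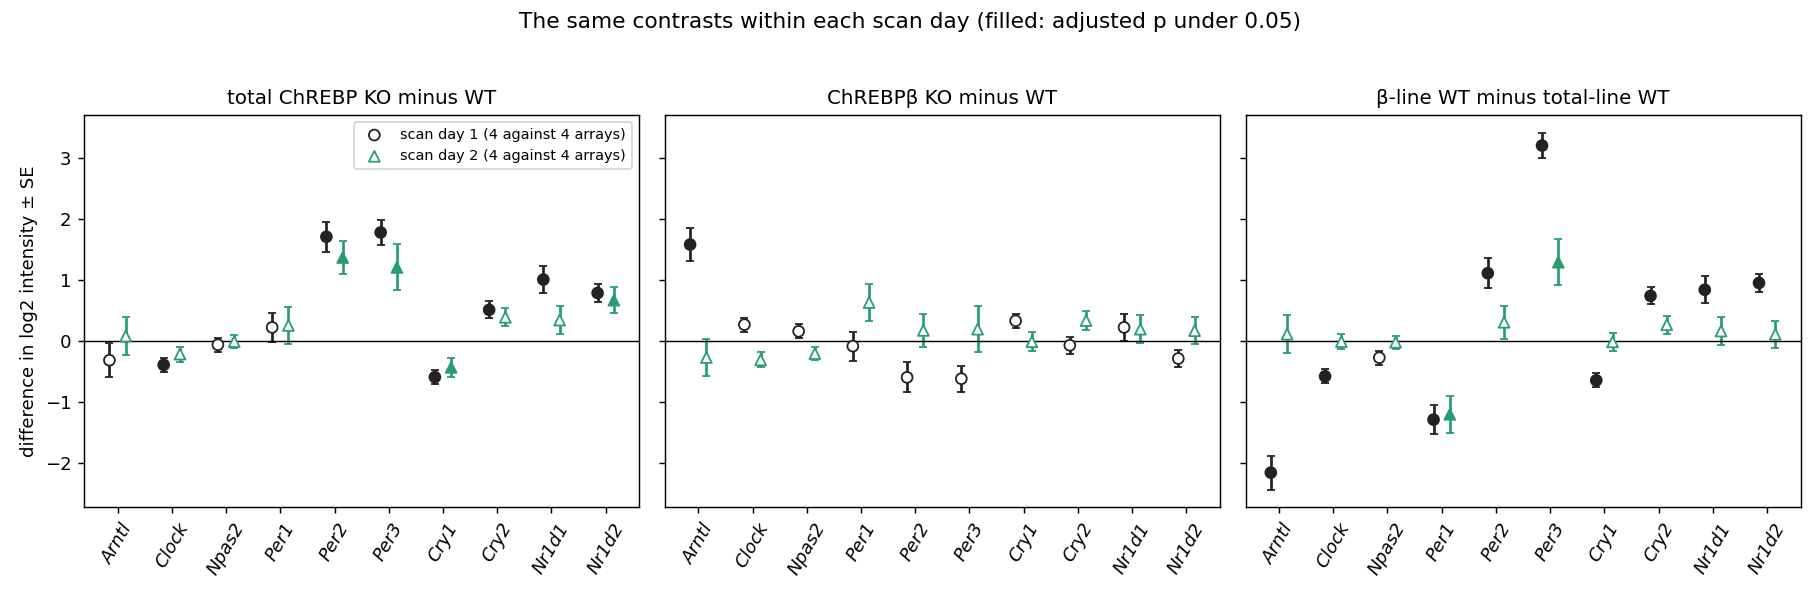
The 3 contrasts of log2 intensity (y axis, ± SE) for the 10 genes (x axis) within scan day 1 (circles) and scan day 2 (triangles), 4 arrays against 4, with filled symbols at an adjusted p under 0.05. The total ChREBP KO differences of Per2, Per3, Cry1 and Nr1d2 are filled on both days, and Arntl lies at -2.16 on day 1 and 0.11 on day 2 between the WT groups.

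Pooled within groups, mice of the β line also spread more widely than those of the total line. The pooled SD within groups was larger in the β line for 10 of 10 genes, beside 57.7% of all genes. It was 0.96 against 0.35 for Arntl, 0.89 against 0.35 for Per3, 0.46 against 0.15 for Nr1d2, 0.62 against 0.26 for Per1 and 0.28 against 0.13 for Clock. These ratios were 2.17 to 2.97, while the median ratio over 24521 genes was 1.07 and between 0.958% and 3.76% of genes had a larger one. The wider spread of Per1 lay in ChREBPbeta_KO (SD 0.81) and not in ChREBPbeta_WT (0.31), against 0.295 in ChREBPtotal_WT and 0.23 in ChREBPtotal_KO. For Nr1d1, Cry1, Npas2, Per2 and Cry2 the ratios were 1.04 to 1.42, near those of many genes (53% to 21.5% had a larger one). The pooled SD holds the split of ChREBPbeta_WT by scan day, and within its days 1 and 2 the SD was 0.30 and 0.13 for Arntl, 0.085 and 0.40 for Per3 and 0.071 and 0.17 for Nr1d2 (n = 4 each). The main fit takes 1 spread per probe over all 4 groups, so the SE of Arntl was 0.34 in both KO contrasts and between the WT groups. For genes with such unequal spread, this SE can be too small for the β line and too large for the total line.

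Activators and repressors were set against each other on every array as the mean log2 level of each set, each gene centered on its mean over all arrays. Activators minus repressors was 0.26 to 1.01 in ChREBPtotal_WT (mean 0.62 ± 0.27, SD, n = 8) and -0.66 to 0.29 in ChREBPtotal_KO (-0.20 ± 0.36), overlapping in 1 KO array. In the β line it was -1.10 to 0.58 in WT (-0.29 ± 0.78) and -0.72 to 0.84 in KO arrays (-0.13 ± 0.57). The 4 day 1 arrays of ChREBPbeta_WT were at -1.10 to -0.79 and the 4 day 2 arrays at 0.17 to 0.58. These scores are descriptions, given without a test because the genes had been chosen with results known.

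**Figure D4:**
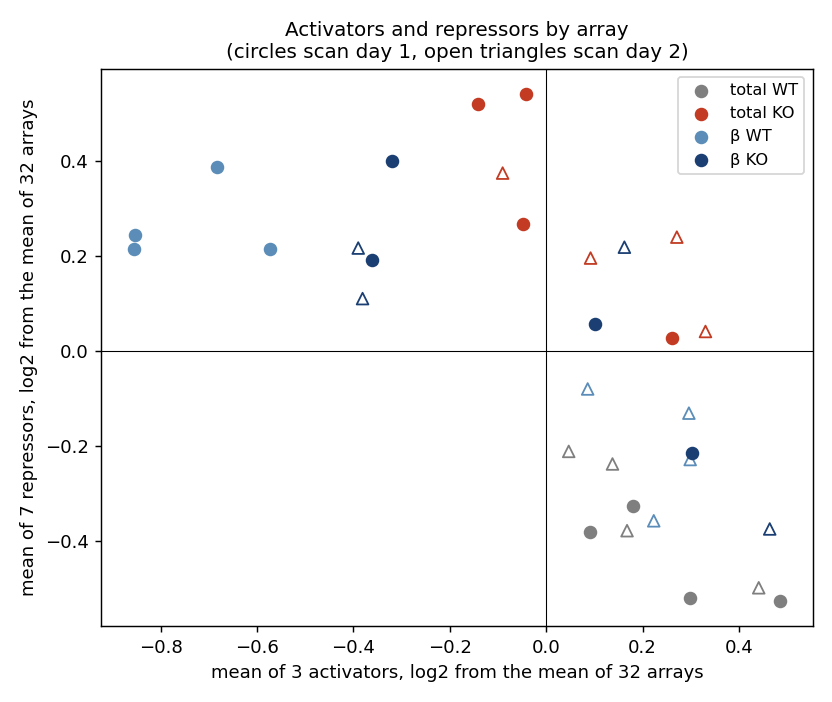
Mean log2 level of the 3 activators (x axis) and of the 7 repressors (y axis) on each of 32 arrays, each gene centered on its mean over all arrays, with circles for scan day 1 and triangles for day 2. ChREBPtotal_WT arrays lie at the lower right (activators 0.05 to 0.49, repressors -0.53 to -0.21), and the day 1 arrays of ChREBPbeta_WT lie farthest to the left.

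Pooled over groups with group means removed, mice with more Arntl had less Per3, Nr1d2, Cry2 and Nr1d1 and more Clock and Npas2, the last near background. Because ChREBPbeta_WT fell into 2 clusters, the correlation with Arntl was taken over the 24 arrays of the other groups after group means were removed, a choice made after the values had been seen, with 9 pairs tested and 100000 permutations within groups. Per3 had r = -0.83 (rho = -0.80, permutation adjusted p = 0.00036 for r), Nr1d2 r = -0.80 (rho = -0.79, permutation adjusted p = 0.00036), Cry2 r = -0.72 (rho = -0.66, permutation adjusted p = 0.000698) and Nr1d1 r = -0.69 (rho = -0.59, permutation adjusted p = 0.000698). Clock had r = 0.68 (rho = 0.70, permutation adjusted p = 0.0074), Npas2 r = 0.51 (rho = 0.51, permutation adjusted p = 0.0228) and Cry1 r = 0.49 (rho = 0.41, permutation adjusted p = 0.0228 for r and 0.0688 for rho). Raw permutation p-values of r for these 7 genes ran from 8e-05 to 0.0177. Per2 (r = -0.33, rho = -0.43, permutation adjusted p = 0.209 and 0.0528) and Per1 (r = 0.16, rho = 0.03, permutation adjusted p = 0.619 and 0.915) did not pass.

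Without the 2 arrays farthest from the median in Arntl, r was -0.72 for Per3, -0.75 for Nr1d2, -0.70 for Cry2, -0.57 for Nr1d1, 0.71 for Clock, 0.51 for Npas2, 0.37 for Cry1, -0.42 for Per2 and -0.05 for Per1. Within groups of 8, Per3 had r = -0.70 in ChREBPtotal_WT, -0.94 in ChREBPtotal_KO and -0.82 in ChREBPbeta_KO, and Nr1d2 had -0.49, -0.68 and -0.87. In the same order of groups, Cry2 had -0.43, -0.85 and -0.77, and Nr1d1 had -0.30, -0.81 and -0.75. Clock had 0.34, 0.65 and 0.76, and Npas2 had 0.60, 0.40 and 0.58, so r was weak in ChREBPtotal_WT for Nr1d1 and Clock. Cry1 was uneven, with 0.28, -0.02 and 0.86. ChREBPbeta_KO is part of the 24 arrays and had the widest spread of Arntl among them (SD 0.71, against 0.42 in ChREBPtotal_KO and 0.26 in ChREBPtotal_WT). It therefore weighs most in the pooled r and is no separate support for it. Its array highest in Arntl (9.46, replicate 7) was its lowest in Per3 (8.22), Nr1d2 (9.46) and Nr1d1 (9.58).

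**Figure D5:**
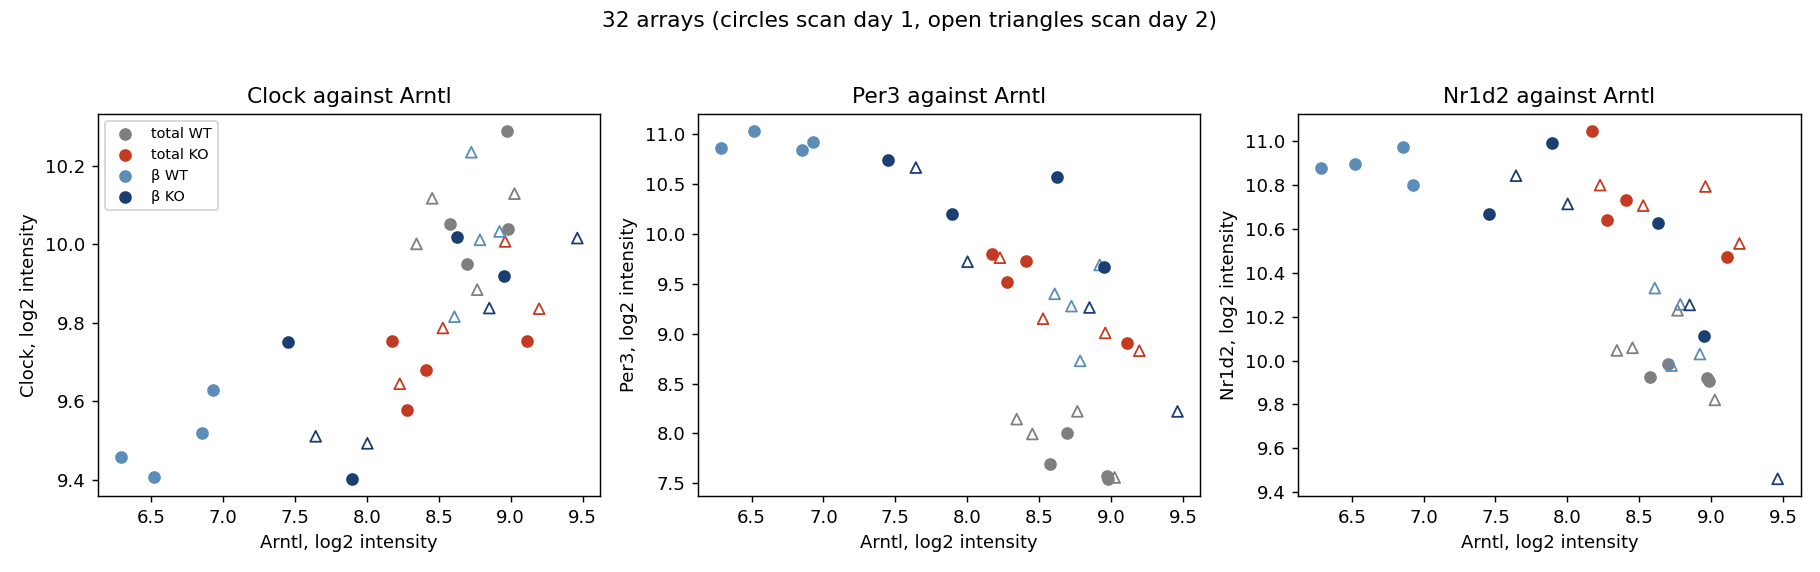
Log2 intensity of Clock, Per3 and Nr1d2 (y axes) against that of Arntl (x axes) on 32 arrays, by group (colors) and scan day (circles day 1, triangles day 2). Within groups Per3 and Nr1d2 fall as Arntl rises (r = -0.83 and -0.80 over 24 arrays, group means removed), and the 4 day 1 arrays of ChREBPbeta_WT stand apart at the left.

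The genes whose within-group pattern over all 32 arrays was most like that of Arntl, among 16882 genes with a RefSeq symbol, included Sh3pxd2a, Ccng2, Dtx4 and Leo1 (r = 0.87 to 0.91 over 32 arrays, 0.76 to 0.83 over 24). Leaving out the 10 clock genes, of which Per3 had -0.88, the most opposite were Tef (-0.93) and Dbp (-0.92), which encode D-box activators of the clock output, Osbpl5 (-0.86), Usp2 (-0.85), a deubiquitinase, and Ppcdc (-0.85). Over 24 arrays r was -0.90 for Tef, -0.90 for Dbp, -0.68 for Osbpl5, -0.62 for Usp2 and -0.74 for Ppcdc. Among the same genes, 0.0118% had a lower r with Arntl than Per3 over 24 arrays and 0.0237% a lower r than Nr1d2, and 99.8% had a lower r than Clock. Per1 (69.9%) lay inside the bulk of genes.

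Transcription factors around the loop moved in total ChREBP KO mice too. Of 13 listed genes 12 were measured (Rorb had no probe above the filter), and 8 were higher and 2 lower in ChREBPtotal_KO than in WT (44.1% of all genes were called), with a median of 0.92 beside 0.01 over all genes. The 3 highest were Hlf (1.86 ± 0.23, limma adjusted p = 5.62e-08), Dbp (1.64 ± 0.49, adjusted p = 0.00664) and Ppara (1.51 ± 0.09, adjusted p = 9.28e-15), the last a fatty acid-sensing receptor and Arntl activator. Bhlhe40, an E-box repressor, was among the lower genes (-1.09 ± 0.19, adjusted p = 1.78e-05). In ChREBPβ KO mice 0 of 12 were called (2.7% of all genes). Between the WT groups 7 were higher and 3 lower (38.9% of all genes were called), led by Dbp (1.87 ± 0.49), Ciart (1.12 ± 0.30) and Hlf (1.06 ± 0.23) and, downward, by the D-box repressor Nfil3 (-1.15 ± 0.29), Ppargc1a (-0.65 ± 0.18) and Rora (-0.51 ± 0.08).

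Kinases, ubiquitin ligases and cofactors of the clock were measured for 24 of 24 genes. In total ChREBP KO mice 8 were higher and 8 lower (44.1% of all genes were called), with a median of -0.035. The highest were Usp2 (1.45 ± 0.23, limma adjusted p = 4.12e-06), Nampt (1.00 ± 0.08, adjusted p = 2.06e-12), which makes the NAD+ precursor used by SIRT1, and the acetyltransferase Ep300 (0.52 ± 0.10, adjusted p = 5.84e-05). The lowest were Prkaa2 (-0.73 ± 0.07), a subunit of AMP-activated kinase, Btrc (-0.58 ± 0.07), of the ligase that degrades PER proteins, and Gsk3b (-0.50 ± 0.08). In ChREBPβ KO mice 1 of 24 was called (2.7% of all genes), Gsk3b, which fell by 0.45 ± 0.08 (limma adjusted p = 0.00125). Between the WT groups 7 were higher and 2 lower, near the 38.9% called over all genes, the highest being Timeless (0.30), Gsk3b (0.28) and Csnk2a1 (0.25) and the lower ones Prkaa2 (-0.50) and Csnk1a1 (-0.27).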

How the data were processed

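RNA of brown adipose tissue was measured on 32 Agilent 1-color arrays, 4 groups of 8. The authors deposited scanner files of Agilent Feature Extraction 10.10.1.1, which hold the median intensity of each spot, not normalized, and a value table in log2 that had been filtered and quantile normalized. Probe coordinates are of build mm9. A spot was kept where it was found, had a positive signal and lay well above background on 26 of 32 arrays, or on 6 arrays of any group (39985 of 59305 spots). Median intensities were log2 transformed and quantile normalized, and repeated probes were represented by their median. Against the deposited log2 values, the mean absolute difference was 0.00298. Groups were compared with limma 3.58.1 (R 4.3.3) over all 32 arrays without covariates, with Benjamini-Hochberg adjustment over all probes. The fit was tested on simulated data with 1 spread per probe for all groups and no batch or scan day structure. That test does not cover the unequal spread of the lines or the split by scan day.

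The 10 genes, the other gene lists and the motifs were chosen with earlier results of these data known. Named outside the 10 genes were the targeted gene, the 3 highest and 3 lowest called genes of the 2 pathway lists, and the 5 genes with the highest and the 5 with the lowest r with Arntl, of which some are not reported here. Alternatives covered background correction, scaling, the deposited table, filters, batch, slide and replicate blocks, array weights, muscle and liver covariates, probe averages and leaving out each array. Scan day fits and the correlation without ChREBPbeta_WT were added after the values had been seen.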

Additional observations from a re-analysis of the deposited data

Results flagged for a closer look

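Per2 had 1 array far from its group. ChREBPbeta_WT replicate 8 was at 9.38 (log2 intensity), with the nearest array of the group at 10.23, the only such case among 40 sets of 8 arrays (10 genes in 4 groups). Chance alone marks about 1 in 20 sets, so this is no more than chance gives.

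The effect of the KO differed between the lines by its own test for Per2 (-1.75 in the β line minus the total line, log2, limma adjusted p = 1.77e-05), Per3 (-1.71, adjusted p = 0.00531), Cry1 (0.67, adjusted p = 0.00154) and Nr1d2 (-0.79, adjusted p = 0.0113). Within scan day 1 these 4 differences were called, and within scan day 2 none was, with values of -1.20 for Per2, -1.01 for Per3, 0.42 for Cry1 and -0.50 for Nr1d2, each in the same direction. The day 1 fit holds the ChREBPbeta_WT arrays whose split prompted it, so its calls are no independent support.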

How the results depend on the processing

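Among the alternatives fixed at the start, the number of clock genes called in total ChREBP KO against WT was 7, 4 with slide as a block, and 6 when probes of 1 gene were averaged or at an adjusted p of 0.01 (Clock not called in either). Between the WT groups it was 9, 3 with the muscle and liver means as covariates, 5 at an adjusted p of 0.01, 7 with averaged probes (Arntl, adjusted p = 0.0597, and Cry1, 0.348, not called) and 8 with slide as a block (Per2, 0.0513, not called). For the interaction of KO and line it was 4, 5 with averaged probes (Cry2 added, 0.0387) and 3 at an adjusted p of 0.01 (Nr1d2 not called). Leaving out 1 array at a time gave 7 to 7 in total ChREBP KO, 0 to 0 in ChREBPβ KO, 4 to 4 for the interaction of KO and line and 6 to 9 between the WT groups (6 without ChREBPtotal_WT replicate 2, 7 without ChREBPbeta_WT replicate 1 or 3). In fits chosen after the data were seen, scan day 1 alone gave 1 in ChREBPβ KO, and scan day 2 alone gave 4 in total ChREBP KO, 0 for the interaction and 2 between the WT groups. Correlations of same-numbered samples were -0.30 to 0.08, -0.20 to 0.53 and -0.08 to 0.36 in total ChREBP KO, ChREBPβ KO and the WT groups, with 0, 6 and 3 of 8 pairs over 0.1 and 0, 1 and 3 of 8 correlating best with their own number. Since not every pair was over 0.1, the numbers were not taken as pairs, and the replicate block gave the same counts, 7, 0, 4 and 9. Over all 32 arrays, ChREBPbeta_WT included, r with Arntl was -0.44 for Per2, against -0.33 over 24. Its values for Clock, Npas2, Per1, Per3, Cry1, Cry2, Nr1d1 and Nr1d2 were 0.82, 0.61, 0.17, -0.88, 0.60, -0.74, -0.56 and -0.84.

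Of the directions that turned, 44 under the fixed alternatives concerned differences not called, and of 15 under the scan day fits 1 had been called, Arntl between the WT groups (0.11 on day 2). The cause was not tested. In total ChREBP KO, Arntl was at 0.057 with slide as a block, 0.037 as the mean of its probes and 0.081 on day 2, and Npas2 at 0.14 with scaling to the 75th percentile, 0.033 with slide as a block and 0.0039 with array weights. In ChREBPβ KO, Clock was at 0.11 with slide as a block, 0.022 with array weights, 0.047 as the mean of its probes and 0.27 on day 1, Npas2 at 0.066 with slide as a block and 0.16 on day 1, and Nr1d1 at -0.0043 with slide as a block. On day 1 Per1 was at -0.084 and Cry2 at -0.07, and on day 2 Arntl was at -0.27, Per2 at 0.18, Per3 at 0.19, Cry1 at -0.011 and Nr1d2 at 0.17. For the interaction, Npas2 was at -0.26 with scaling to the 75th percentile, -0.010 with array weights and -0.026 with the covariates, and Per1 at -0.012 with array weights and -0.31 on day 1. On day 2 Arntl was at -0.35, Clock at -0.10 and Npas2 at -0.20. Leaving out 1 array moved Npas2 between -0.075 and 0.0059 in total ChREBP KO. In ChREBPβ KO it moved Clock between -0.071 and 0.047, Npas2 between -0.066 and 0.030, Per3 between -0.41 and 0.025 and Nr1d2 between -0.14 and 0.084. For the interaction it moved Npas2 between -0.031 and 0.065 and Per1 between -0.18 and 0.17. Npas2 lay near background, and 8 arrays per group limit the precision.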

Other observations

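The test of whether the difference between the WT groups itself differed between the scan days marked 15 genes in all (limma, adjusted p under 0.05), Arntl among them, whose split had prompted the test. Others, named here after their values were seen, were Wee1, a cell cycle kinase whose gene is a known target of the clock (-1.40 from day 1 to day 2, adjusted p = 0.0475), and Usp2 (-1.42, adjusted p = 0.0491).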
